A study of Mus musculus with 4 samples.

Results

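The arrays of NSCL61-Ceacam1sh and NSCL61 were compared to find which genes differ when a short hairpin RNA against Ceacam1 is expressed in a glioma-initiating line. NSCL61 is a mouse line known as neural stem cells without p53 that were transformed with an activated Ras and form gliomas when transplanted. Ceacam1 is a cell surface glycoprotein of the immunoglobulin superfamily that binds copies of itself on neighbouring cells, and the cytoplasmic tail of its long form recruits tyrosine phosphatases and Src-family kinases. The genes described here are all named genes with a probe well above background on either of these arrays or on both, which were 15620 of the 22339 genes with a probe.

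The series holds 4 single-colour arrays, 1 for each of 4 groups, and per the labels all cells were p53-/-, were of brain tissue from mouse embryos at E14.5 and were grown in serum-free neural stem cell medium. NSC are neural stem cells without further description, NSC-Ceacam1L carry a vector that expresses the long Ceacam1 form, NSCL61 is the tumour line, and NSCL61-Ceacam1sh is that line with the hairpin vector. Cells that took up a vector were kept in hygromycin for 1 week. The labels give neither whether the NSCL61 cells carried an empty vector nor whether the selected cells were a pool or a clone, and the hairpin's own sequence is not among them. With 1 array a group, no difference below has a replicate check and no p-value is given. The 4 arrays lay on 1 slide, so position on the slide and group cannot be told apart.

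Levels are log2 signals scaled to the 75th percentile of each array, and a difference is NSCL61-Ceacam1sh (the hairpin array) minus NSCL61 (the parental array) on that log2 scale. Levels of different probes are not comparable with each other, and a summed signal over a list rests mostly on its brightest probes. An error after ± is the modelled spot error of the scanner software and holds no variation between cultures. A gene is called seen when its probe was well above background, and higher or lower when it differed by 2-fold or more and was seen on the brighter array. For a gene seen on 1 array only, "at least N-fold" gives the bright level over the higher of the dim level and the faintest signal that still passed as well above background there. A list median marked "with bounds" takes such genes at that lower bound, or at 0 where none could be given. A gene that is bright on 1 array and dim on the other enters through the bright array and so had to differ, so the median over the members seen on both arrays is added, marked "on both", where it departs from the list's median by over 1.5 times.

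Radial glia are the neural stem cells of the embryonic brain, and they give rise to neurons and then to astrocytes and oligodendrocytes under the control of Sox, Olig, Nfi and Notch pathway factors. Mesenchymal cells such as fibroblasts carry other factors (Twist, Snai, Prrx) and build a matrix of fibrillar collagens that brain tissue largely lacks. A mesenchymal expression state is a recognised form of human glioblastoma. The lists below cover these programmes, the signalling pathways around Ras and Ceacam1, and general cell functions.

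The targeted gene could not be checked. Its only probe here was named for the neighbouring gene Ceacam2, listed transcripts of both genes and lay on chromosome 7, 26302671 to 26302730, minus strand (mm9). The first 30 of its 60 bases, shown because no other probe was found to list a Ceacam1 transcript, were as follows.
A_55_P2386236: acttgaatttccataaaccttggaggtcac
Its level was -4.94 on NSC, -5.01 on NSC-Ceacam1L, -5.0 on NSCL61 and -4.34 on the hairpin array, and only the last of these was well above background. The probe was thus not above background on NSC-Ceacam1L, whose vector expresses the long form, and whether it can report the target is not known. The difference between the NSCL61 arrays was 0.66 ± 0.58, so the probe was no lower on the hairpin array than on the parental array. The groups are therefore named as the arrays were labelled.

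Close to every other gene seen differed by 2-fold or more between the arrays. Of the 15620 genes, 3664 (23.5%) were higher and 3787 (24.2%) lower on the hairpin array, together 47.7%. The counts of each list below are to be read against these shares. Detection on 1 array only lay behind 952 of the higher and 1425 of the lower calls. Among the 12966 genes seen on both arrays, 7892 (60.9%) lay within 2-fold, whereas 44 were higher and 65 lower by 64-fold or more. The SD of these differences was 1.60, against a median modelled error of 0.20. A call takes a difference of 1.0 in log2 and so exceeds this median error by definition. The error can be larger for genes seen on 1 array only, such as 1.47 for Lce1f with a difference of 2.51. The median difference of all genes seen was 0.01, and scaling to the median or to the spike-in controls moved it to 0.43 and 0.46. Under these 2 scalings 64.5% and 65.3% of calls were higher, against 49.2% here, so a list median a little below 0 has no settled direction. Of the Ceacam and Psg family, 6 of 27 genes with a probe were seen, and 3 were higher and 1 lower (median 1.15, 0.52 with bounds, and -0.65 over the members seen on both arrays).

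**Figure D1:**
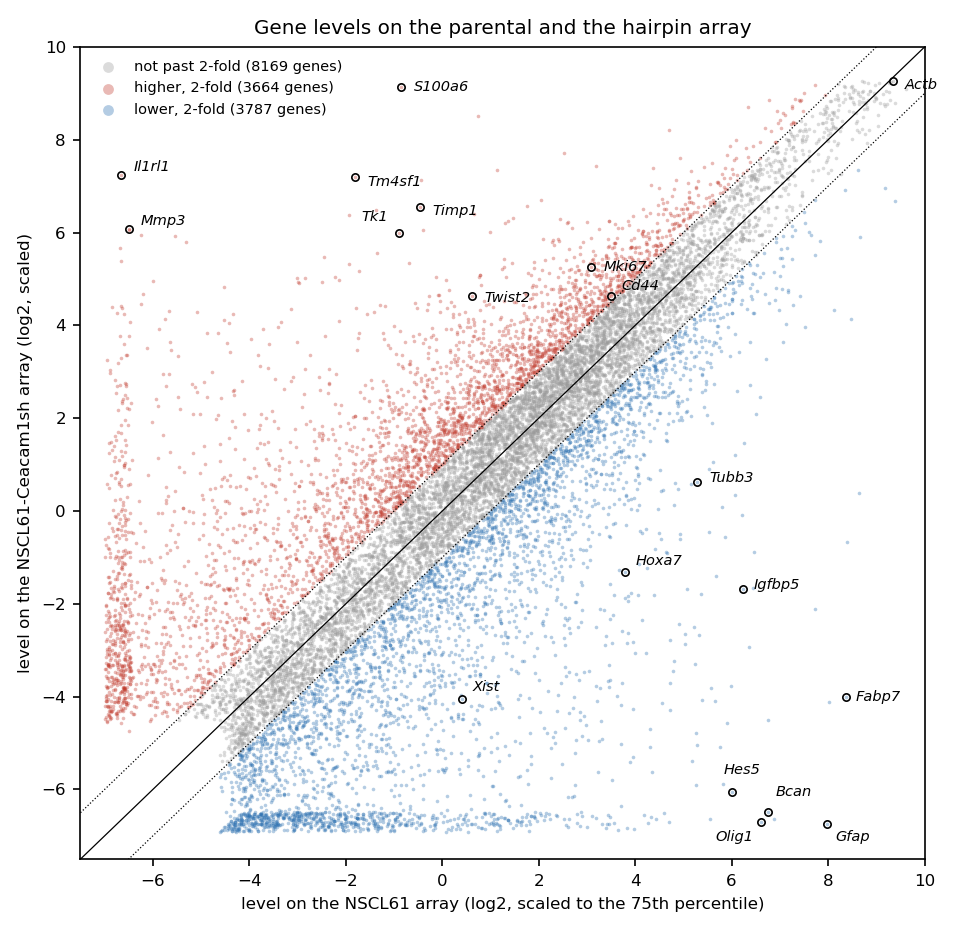
Level of each gene seen on at least 1 of the 2 arrays on NSCL61 (x axis, log2 scaled signal) and NSCL61-Ceacam1sh (y axis, same scale), with dotted lines at 2-fold and selected genes named; red and blue points are the 3664 higher and 3787 lower genes. The vertical and horizontal bands at the left and lower edges hold genes that were not above background on 1 of the arrays, among them Mmp3 and Il1rl1 on NSCL61 and Gfap and Olig1 on NSCL61-Ceacam1sh.

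The hairpin array, rather than the parental one, was the array that stood apart from the others. Its level lay 2-fold or more outside those of NSC, NSC-Ceacam1L and NSCL61 in the same direction for 2250 (61.4%) of the higher and 2197 (58.0%) of the lower genes. NSCL61 was the outlying array for 589 (16.1%) of the higher and 844 (22.3%) of the lower genes. Counted over the whole array, 2250 genes were 2-fold above all others on NSCL61-Ceacam1sh, against 844 on NSCL61, 672 on NSC-Ceacam1L and 373 on NSC. These counts compare single arrays, and the part of slide position in them was not tested.

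The following genes were among the 20 largest positive differences of genes seen on both arrays. S100a6, a calcium binding protein of proliferating and mesenchymal cells, was at -0.86 on NSC, 2.16 on NSC-Ceacam1L, -0.86 on NSCL61 and 9.13 on the hairpin array, a difference of 9.99 ± 0.21. The tetraspanin relative Tm4sf1 differed by 9.01 ± 0.21, the lipoprotein phospholipase Pla2g7 by 8.58, the water channels Aqp1 and Aqp5 by 8.04 and 7.87, and the surface antigens Ly6e and Ly6c1 by 7.92 and 7.64. The focal adhesion protein Tes (7.89), the Rac regulator Arhgap22 (8.07), the tubulin Tuba1c (7.78), the collagen processing enhancer Pcolce (7.56), the neural crest and muscle factor Pax3 (7.69) and the death gene Pmaip1 (7.43) were among them as well. The NSC arrays did not always side with NSCL61. Pla2g7 was at 3.95 on NSC, 6.27 on NSC-Ceacam1L, -4.34 on NSCL61 and 4.24 on the hairpin array, so NSCL61 was the low array.

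The following genes were among the 20 largest negative differences. Fabp7, the radial glial fatty acid binding protein, was at 8.9 on NSC, 8.39 on NSC-Ceacam1L, 8.36 on NSCL61 and -4.0 on the hairpin array, so only the hairpin array was low. For the calcium sensor Kcnip3 too only the hairpin array was low (4.63 on NSC, 5.06 on NSC-Ceacam1L, 5.39 on NSCL61 and -4.07 on the hairpin array). Further members were the chloride channel relative Ttyh1 (-9.83), Lrrc4b (-9.76), the secretogranin Scg3 (-9.02), the neuropeptide precursor Vgf (-8.11), Scrg1 (-8.03), the microtubule protein Mapt (-7.98) and the mitochondrial malic enzyme Me3 (-8.23). The smooth muscle calponin Cnn1 was at -3.07 on NSC, -1.28 on NSC-Ceacam1L, 4.55 on NSCL61 and -4.14 on the hairpin array and the growth factor binding protein Igfbp5 at 2.16 on NSC, 2.71 on NSC-Ceacam1L, 6.23 on NSCL61 and -1.68 on the hairpin array, with NSCL61 the highest array for both.

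Among genes seen on the hairpin array only, the largest bounds included those of Il1rl1, which binds interleukin-33 (at least 3786-fold higher), the prostaglandin synthases Ptgs1 (at least 1552-fold higher) and Ptgs2 (at least 1403-fold higher), the stress gene Ier3 (at least 1267-fold higher), the protease inhibitor Slpi (at least 784-fold higher), the BMP antagonist Grem1 (at least 552-fold higher) and the co-chaperone Bag3 (at least 500.4-fold higher), besides Mmp3 and Cd34. Seen on the parental array only were, among others, the sodium pump subunit Atp1b2 (at least 3164-fold lower), the proteoglycan Bcan (at least 2883-fold lower), the potassium channel Kcnj10 (at least 1268-fold lower), the endothelin receptor Ednrb (at least 979.9-fold lower), the kinesin Kif1a (at least 654-fold lower) and the sulfatase Sulf1 (at least 1419-fold lower). Ier3 was at 1.77 on NSC, 0.79 on NSC-Ceacam1L, -6.67 on NSCL61 and 5.66 on the hairpin array, so it was seen on both NSC arrays and not on NSCL61.

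Marker lists of cell types were set against the labels. The label gives neural stem cells of the brain for both arrays, and the parental array held the neural markers, with 18 of 20 radial glial and 19 of 20 astrocyte genes seen. On the hairpin array, 16 and 14 of these were seen. Of the 20 radial glial genes 11 were lower and 4 higher (median -1.47, -0.91 on both), 18 of the 19 astrocyte genes were lower with 0 higher (median -6.31, -6.13 with bounds), and in the oligodendrocyte list 14 of 19 were lower and 1 higher (median -3.19, -3.07 with bounds, -1.9 on both). Not all stem cell genes were lower. Nestin (Nes, -1.18) was lower, but vimentin (Vim, -0.63), Pax6 (0.13), Msi1 (-0.0030), Hes1 (0.28) and Hopx (0.31) were within 2-fold, while the sugar epitope enzyme Fut4 (at least 28.9-fold higher) and the stem cell antigen Prom1 (at least 5.15-fold higher) were seen on the hairpin array only. The nuclear receptor Nr2e1, which keeps neural stem cells dividing, was at least 102-fold lower, and the phosphatase Ptprz1 at least 1513-fold lower.

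The summed scaled signal of the astrocyte list was 1593 on NSCL61 and 90.1 on NSCL61-Ceacam1sh, against 703 on NSC and 1713 on NSC-Ceacam1L, and that of the oligodendrocyte list was 176, 4.59, 281 and 341 in that order, in units of each array's 75th percentile. In RNA from whole cultures, fewer cells of a type and less RNA per cell cannot be told apart. Of the astrocyte genes, the water channel Aqp4 (-4.84 ± 0.26), the aldehyde dehydrogenase Aldh1l1 (-6.31 ± 0.22) and the bicarbonate transporter Slc4a4 (-4.54) were lower and S100b was at least 352-fold lower, whereas clusterin (Clu) differed by -0.81. Apoe was at 6.46 on NSC, 8.85 on NSC-Ceacam1L, 8.38 on NSCL61 and -0.66 on the hairpin array, which left it lower than on any other array. In the oligodendrocyte list, Sox10 (-1.9) and the myelin gene Cnp (-3.86) were lower, while Pdgfra, the receptor that marks precursors, was at 1.61 on NSCL61 and 1.03 on the hairpin array and within 2-fold.

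Of 19 neuron and neuroblast genes 13 were lower and 1 higher (median -2.0, -1.24 with bounds, -1.24 on both, summed signal 270 on NSCL61 and 50.9 on the hairpin array), and of 9 ependymal genes 7 were lower and 1 higher (median -3.19, -1.95 with bounds, -1.08 on both). The RNA binding gene Elavl3 was at least 219.7-fold lower, Tubb3 differed by -4.65 ± 0.20 and Map2 by -4.26. Synaptophysin Syp (-0.19) and Elavl4 (0.62) were within 2-fold. Foxj1, the master factor of motile cilia, was at least 104-fold lower, and the ciliary genes Dynlrb2 (at least 38.9-fold lower) and Rsph1 were seen on the parental array only.

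The fibroblast list went the other way, with 15 of 17 genes seen higher and 2 lower (median 4.48). Its summed signal was 177 on NSCL61 and 618 on NSCL61-Ceacam1sh, against 125 on NSC and 65.4 on NSC-Ceacam1L. Most of the sum on NSCL61 and on NSCL61-Ceacam1sh came from S100a4, at 7.1 and 8.55 on these arrays. Dcn, a collagen binding proteoglycan, was at -6.27 on NSC, -5.16 on NSC-Ceacam1L, -6.66 on NSCL61 and 3.31 on the hairpin array, and the mural and fibroblast receptor Pdgfrb was at least 82.0-fold higher. The stem and progenitor antigen Ly6a was at least 165-fold higher, the crosslinking enzyme Loxl1 at least 29.6-fold higher, and Fbln2 differed by 4.27. The list was not complete on the hairpin array. Fap, Pi16, Lum, Postn and Dpt were seen on neither array, Thy1 was at least 2.92-fold lower and the microfibril gene Mfap5 at least 6.21-fold lower. The part of another cell type in these differences was not tested.

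Other cell types gave few seen markers. The defining genes Pecam1 (-0.16) and Kdr (-0.69) of endothelium were within 2-fold, and 0 of 5 endothelial genes seen were higher and 2 lower (median -0.69). In the microglial list, where Ptprc, Aif1, Tyrobp and P2ry12 were seen on neither array, 2 of 8 were higher (25%) and 3 lower (37.5%) with Tmem119 at 5.19 (median -0.43, above 0 under spike-in scaling). Of 9 lymphoid, mast cell and granulocyte genes 3 were higher and 1 lower (median -0.16, above 0 under median and spike-in scaling), and the stem cell factor receptor Kit was at least 62.1-fold lower. Of 6 mural genes 1 was higher and 4 lower (median -2.51, -1.53 with bounds, -1.35 on both), of 9 Schwann cell, neural crest and melanocyte genes 0 were higher and 4 lower (median -0.99, -0.32 with bounds, -0.22 on both), and of 10 pluripotent and germ cell genes 1 was higher and 6 lower (median -1.32, -0.74 with bounds, -0.33 on both). The RNA binding protein Lin28b was at least 7.9-fold higher. Epithelial and mesothelial genes had 2 higher and 3 lower of 9 (median -0.08, above 0 under median, quantile, cyclic loess and spike-in scaling, at 0.03 over genes seen on both arrays and above 0 with dim genes kept), and their summed signal was 13.6 on NSCL61 and 84.9 on NSCL61-Ceacam1sh. Nearly all of the latter sum came from mesothelin Msln, at 6.39 on the hairpin array. Msln (8.32) and Krt19 (at least 12.5-fold higher) were higher and the neuronal glycoprotein Gpm6a was at least 335-fold lower. Epcam, Cdh1, Krt7, Krt18 and Wt1 were seen on neither array. Of 6 muscle genes 3 were higher and 3 lower (median -0.52, above 0 with normexp background correction and with dim genes kept, and 4.77 over the 2 seen on both arrays). Their summed signal was 2.71 and 28.1. The cardiac troponin Tnnt2 was at least 358-fold higher, and the myogenic factors Myod1, Myf5 and Myog were seen on neither.

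**Figure D2:**
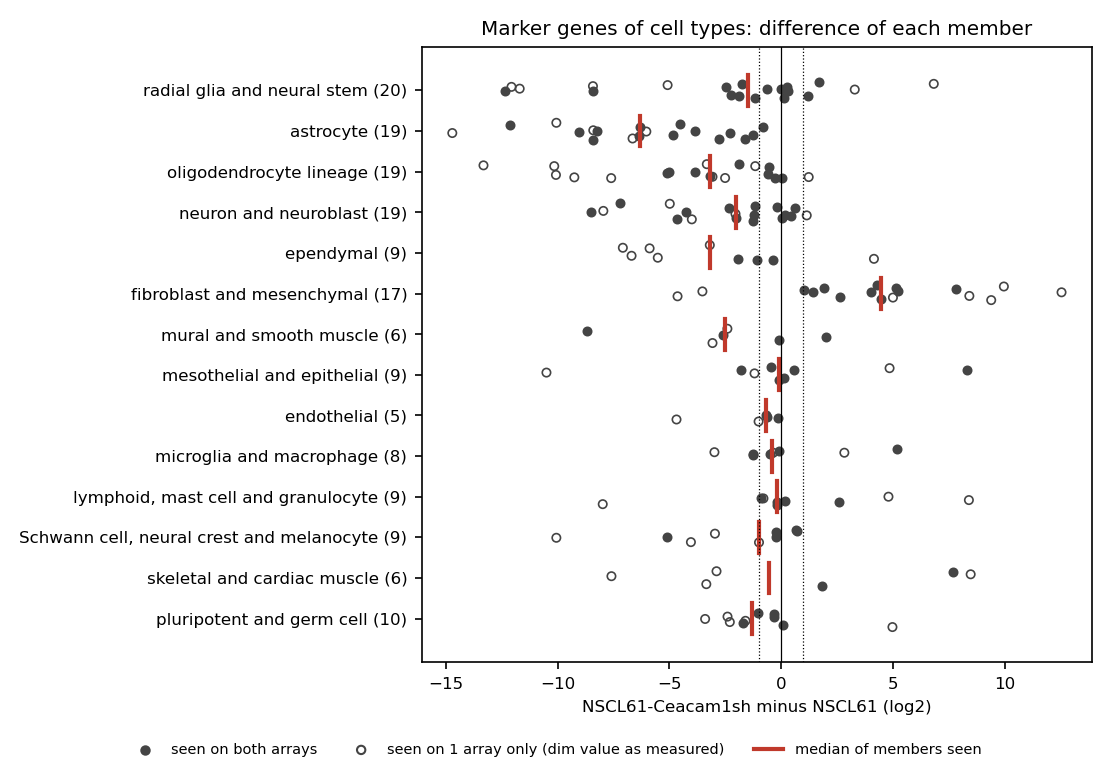
Difference of each marker gene between NSCL61-Ceacam1sh and NSCL61 (x axis, log2) in 14 lists of cell type markers (y axis, number of members seen in brackets), with filled points for genes seen on both arrays, open points for genes seen on 1 array, red bars for list medians and dotted lines at 2-fold. Astrocyte genes lie left of 0 without exception, 15 of 17 fibroblast genes lie right of it, and the medians of the endothelial, microglial, lymphoid, mesothelial and muscle lists lie within 2-fold.

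Most Sox factors, which direct neural stem cells and glia, were lower. Of 13 Sox genes seen, 11 were lower and 0 higher (median -2.35, -2.06 with bounds). Sox2, which maintains neural stem cells, was at 3.55 on NSC, 3.82 on NSC-Ceacam1L, 4.12 on NSCL61 and 2.36 on the hairpin array, and its close relatives Sox1 (2.17 on NSC, 2.52 on NSC-Ceacam1L, 2.56 on NSCL61 and -3.55 on the hairpin array) and Sox3 (-5.46) differed by more. The glial factors Sox9 (-2.06), Sox8 (at least 300.1-fold lower) and Sox21 (-6.1) and the neuroblast factors Sox4 (-2.35) and Sox11 (-2.0) were lower too. Sox5 (0.23) and Sox13 (0.038) were not past 2-fold.

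The regional factors of forebrain and midbrain were split. Of 23 seen, 4 were higher and 9 lower (median -0.69, -0.40 with bounds, -0.29 on both). Otx1 was at least 9.49-fold higher and Eomes differed by 2.44. The glial switch factor Nfia was at least 50.2-fold lower although its relatives Nfib (0.30) and Nfix (-0.40) were within 2-fold. Six3 was at least 267-fold lower, and the midbrain factor En2 differed by -7.09, Pou3f2 by -5.28 and Lhx2 by -3.57.

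Hox genes, which mark position behind the forebrain, were mostly not above background on either array. Of 39 with a probe 9 were seen on NSCL61 and 5 on the hairpin array, 11 in all and 3 on both, with 2 higher and 8 lower (median -2.63, -2.60 with bounds, and 0.004 when dim genes were kept). Hoxa7 was at -4.4 on NSC, -4.89 on NSC-Ceacam1L, 3.79 on NSCL61 and -1.31 on the hairpin array, Hoxa3 at -6.5 on NSC, -7.08 on NSC-Ceacam1L, 1.04 on NSCL61 and -5.93 on the hairpin array and Hoxa5 at -6.57 on NSC, -6.62 on NSC-Ceacam1L, -0.19 on NSCL61 and -6.88 on the hairpin array. Every lower gene but Hoxb3 belonged to the Hoxa cluster. Hoxb9 (at least 9.51-fold higher) and Hoxc11 (at least 2.39-fold higher) were seen on the hairpin array only.

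Factors of mesenchymal transition and mesoderm were mostly higher. Of 26 seen, 18 were higher and 4 lower (median 2.15, 1.48 with bounds). The repressors of epithelial adhesion genes Snai1 (at least 49.9-fold higher) and Snai2 (at least 177-fold higher) were seen on the hairpin array only. The architectural factor Hmga2 was at -0.74 on NSC, -1.94 on NSC-Ceacam1L, -1.93 on NSCL61 and 5.32 on the hairpin array. Twist1 (-5.66 on NSC, -6.73 on NSC-Ceacam1L, -0.62 on NSCL61 and 1.29 on the hairpin array) and Twist2 (-6.57 on NSC, -7.14 on NSC-Ceacam1L, 0.61 on NSCL61 and 4.64 on the hairpin array) were already raised on NSCL61 over the NSC arrays and were higher again on the hairpin array. Prrx2 differed by 4.17, Tbx3 by 4.07 and Runx1 by 4.06, while Zeb1 (-0.52) and Zeb2 (-0.98) were not past 2-fold. Meox1 was at least 9.29-fold lower and Tbx2 at least 12.6-fold lower.

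**Figure D3:**
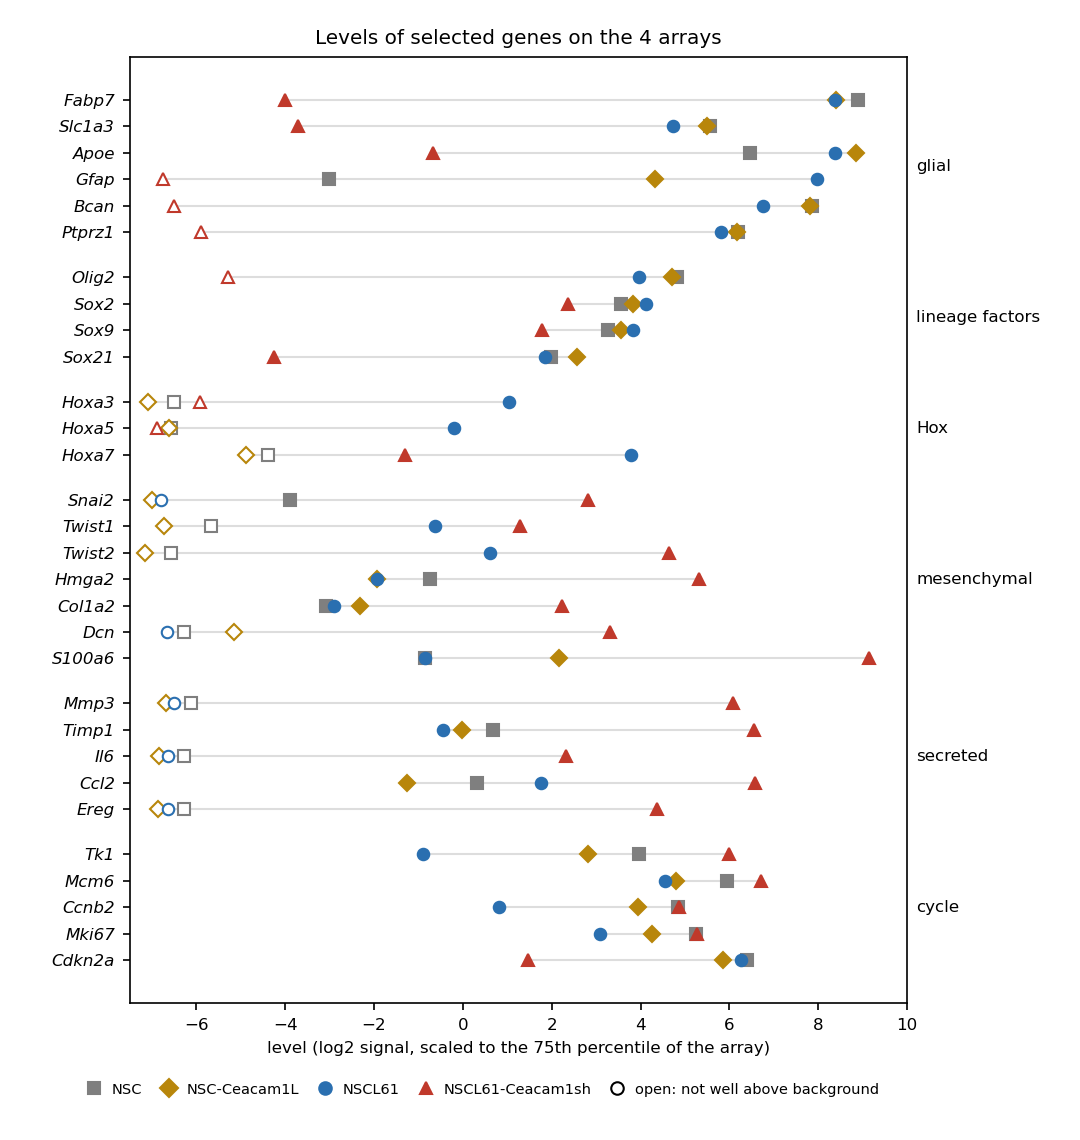
Level of selected genes on each of the 4 arrays (x axis, log2 scaled signal; squares NSC, diamonds NSC-Ceacam1L, circles NSCL61, triangles NSCL61-Ceacam1sh; open symbols are not well above background). The hairpin array is the low point for glial genes and the high point for mesenchymal and secreted genes, NSCL61 is the high point for the Hox genes, and for the cell cycle genes Tk1 and Ccnb2 NSCL61 is the low point.

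Notch signalling passes from ligands of the Delta and Jagged families through cleaved Notch receptors and RBPJ to Hes and Hey repressors, and it holds neural stem cells back from differentiation. Of 24 genes seen, 16 were lower and 4 higher (median -2.85, -2.15 with bounds, -1.7 on both). The ligands Dll1 (-6.41) and Dner (-6.5) were lower, as were both probes of Dll3, whereas Jag1 differed by 1.04. Of the receptors, Notch1 (-1.09) and Notch3 (-6.68) were lower and Notch2 (1.61) was higher. Of the fringe enzymes, which tune the choice of ligand, Lfng was at 2.87 on NSC, 2.86 on NSC-Ceacam1L, 2.09 on NSCL61 and -2.37 on the hairpin array and Mfng was at least 82.7-fold lower, while Rfng (-0.37) was within 2-fold. Among targets, Hes5 was at least 1728-fold lower and Hey1 differed by -5.42 and Hes6 by -3.63, but Hes1 was within 2-fold. RBPJ itself (1.25) and its partner Maml3 (4.25) were higher.

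Ras-ERK genes numbered 13 higher and 3 lower of 35 (median 0.53). The Ras gene Nras (-0.043) and the kinases Braf (0.011) and Mapk3 (-0.0085) were within 2-fold. Hras was at 3.46 on NSC, 2.96 on NSC-Ceacam1L, 3.15 on NSCL61 and 4.83 on the hairpin array. Genes that ERK activity induces were split. The phosphatases Dusp4 (4.91 ± 0.21), Dusp6 (1.93) and Dusp5 (1.41), the ETS factors Ets1 (2.66), Ets2 (2.6) and Etv4 (2.46) and the inhibitor Spry4 (2.71) were higher. Spry1 (-0.91), Spry2 (0.28), Etv1 (-0.53) and Etv5 (0.58) were within 2-fold, and Phlda1 was lower (-1.54). Dusp6 was at 5.24 on NSC, 4.79 on NSC-Ceacam1L, 2.32 on NSCL61 and 4.25 on the hairpin array and Etv4 at 4.41 on NSC, 3.92 on NSC-Ceacam1L, 1.74 on NSCL61 and 4.2 on the hairpin array, so NSCL61 was the low array and the hairpin array lay nearer to the NSC arrays.

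AP-1 factors, which join Fos and Jun proteins, had 5 higher and 5 lower members of 19 (median 0.35). Each count was 26.3% of the members seen, near the 23.5% and 24.2% of all genes seen. Fosl1 was at -6.32 on NSC, -4.61 on NSC-Ceacam1L, -1.77 on NSCL61 and 3.47 on the hairpin array, but Fos (-3.12) and Jund (-1.68) were lower and Jun (-0.44) and Junb (0.35) within 2-fold. The Kruppel-like factors Klf4 (3.52) and Klf2 (2.5) and Maff (2.99) were higher, and Mycn was at least 24.7-fold lower while Myc differed by 0.68.

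The EGF system divided between ligands and receptors. The ligands epiregulin (Ereg, at least 518-fold higher), amphiregulin (Areg, at least 254-fold higher), neuregulin 1 (Nrg1, at least 106-fold higher) and betacellulin (Btc, at least 7.37-fold higher) were seen on the hairpin array only, and Hbegf differed by 2.06 ± 0.20. The receptor Egfr was at 4.49 on NSC, 4.57 on NSC-Ceacam1L, 3.17 on NSCL61 and 0.15 on the hairpin array, a difference of -3.02 ± 0.20, and Erbb4 was at least 115-fold lower, while Erbb2 (-0.10) was within 2-fold. The feedback inhibitor Errfi1 differed by 3.64 and Lrig1 by -1.14. The EGF list had 7 higher and 5 lower members of 14 (median 0.47).

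The FGF, PDGF, VEGF and HGF list had 17 higher and 7 lower of 30 (median 1.58, but 0.23 over the 18 seen on both arrays), and many of its higher members were ligands seen on the hairpin array only. The factors Fgf7 (at least 314-fold higher) and Fgf10 (at least 25.9-fold higher), which act on epithelia, the Axl ligand Gas6 (at least 98.8-fold higher), the lymphatic factor Vegfd (at least 16.6-fold higher) and the Met ligand Hgf (at least 6.88-fold higher) were of this kind. Axl itself differed by 2.2 and Pdgfb by 3.62. Fgfr3, a receptor of radial glia, was at 4.51 on NSC, 4.41 on NSC-Ceacam1L, 4.05 on NSCL61 and -1.8 on the hairpin array, Fgf9 was at least 4.5-fold lower and Kitl differed by -2.59. Fgfr1 (0.37) and Pdgfa (0.10) were within 2-fold.

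In the list of STAT3 receptors, kinases and targets 10 of 28 genes were higher, with 4 lower (median 0.36). The cytokines Il6 (at least 126-fold higher), Il11 (4.99) and Clcf1 (3.1) and the co-activator Bcl3 (5.2) were higher, and Osmr differed by 1.51. Stat3 (-1.74), Jak2 (-1.84) and the feedback gene Socs2 (-3.77) were lower and the receptor Cntfr was at least 25.3-fold lower. The list of Src-family kinases and focal adhesions had 15 higher and 2 lower of 27 (median 1.15). Src kinases themselves differed in sign, with Lyn at 1.95, Src at 1.17 and Fyn at -2.92. Proteins that link integrins to actin were higher, including Parva (3.35), Vasp (2.53), Actn1 (2.33) and Actn4 (2.24), and the caveola protein Cav1 was at least 13.8-fold higher.

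The targets and partners of the YAP and TEAD factors, which respond to cell stretch and density, had 12 higher and 0 lower members of 21 (median 1.32, 1.19 with bounds, 0.88 on both). The matrix protein Thbs1 (at least 540.1-fold higher), the muscle ankyrin protein Ankrd1 (at least 146-fold higher) and the factor Tead4 (at least 31.2-fold higher) were seen on the hairpin array only, and Ccn2 (4.82), Ccn1 (3.39) and Amotl1 (2.71) were higher. Yap1 (0.85) and Wwtr1 (0.33) were within 2-fold. Actin genes showed 12 higher and 5 lower of 32 (median 0.39), led by Fhl2 (7.26), Tpm2 (5.12) and Cald1 (2.92), with Myl9 (-2.61) and Rhoj (-2.06) lower and Actb (-0.075) within 2-fold.

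BMP, TGF-beta and activin genes went both ways, 13 higher and 11 lower of 36 (median 0.20). Inhba, the activin subunit, was at least 525-fold higher, the ligand Bmp2 was at least 35.1-fold higher and Bmp4 differed by 4.76, whereas Inhbb (-6.1) and Bmp7 (at least 4.91-fold lower) were lower. The receptor Tgfbr2 differed by 2.58 and Tgfbr3 by 3.25, and the receptor Bmpr1b, found in neural progenitors, by -3.65. Id1 (2.64) and Id2 (-2.45), targets of BMP signalling, went opposite ways.

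Wnt genes were lower more often, 18 of 38 against 6 higher (median -0.89, -0.62 with bounds, -0.11 on both). The ligands Wnt7a (at least 27.0-fold lower) and Wnt7b (-2.94), the receptors Fzd9 (-5.69) and Fzd10 (at least 69.5-fold lower), the stem cell receptor Lgr5 (-5.06) and the feedback genes Nkd1, seen on the parental array only, and Axin2 (-3.56) were lower. The antagonist Dkk2 was at least 80.1-fold higher, and Tcf7 (3.19) and Fzd1 (2.46) were higher. In the Hedgehog list 3 of 15 genes were higher (20%) and 5 lower (33.3%), against 23.5% and 24.2% of all genes seen. The list's median of -0.26 was above 0 under median, quantile, cyclic loess and spike-in scaling, with the median over a gene's probes and over genes seen on both arrays (0.05). Its inhibitor Hhip was at least 90.8-fold higher, Gli3 differed by 2.14 and Ptch1 by -2.16.

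Guidance molecules split by family. Eph receptors and ephrins, which signal at cell contacts, had 7 higher and 1 lower of 18 (median 0.54, 0.51 with bounds), with Epha2 at -2.79 on NSC, -2.88 on NSC-Ceacam1L, -2.45 on NSCL61 and 5.47 on the hairpin array, Efna5 at 4.03 and Efnb2 at 3.32 against Ephb1, at least 54.0-fold lower. Semaphorins, plexins, netrins and slits had 7 higher and 15 lower of 33 (median -0.69, -0.43 with bounds, -0.2 on both). Slit2 (6.21), Slit3 (at least 28.1-fold higher), Sema7a (3.91) and Unc5b (3.33) were higher. The slit receptors Robo1 (-2.81) and Robo2 (at least 77.1-fold lower) and the plexins Plxnb1 (-3.39), Plxnb3 (at least 135-fold lower) and Plxnc1 (at least 52.3-fold lower) were lower, so ligand and receptor of the Slit pathway differed in opposite directions.

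The IGF system had 9 higher and 3 lower genes of 19 (median 0.75). The RNA binding protein Igf2bp1, of fetal and tumour cells, was at least 122-fold higher, and Stc2 (4.16), Igfbp4 (3.48) and Igfbp3 (3.27) were higher. Igfbp2, a neural stem cell binding protein, was at 6.16 on NSC, 5.98 on NSC-Ceacam1L, 3.62 on NSCL61 and -3.99 on the hairpin array, and the ligand Igf2 was at least 7.91-fold lower.

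**Figure D4:**
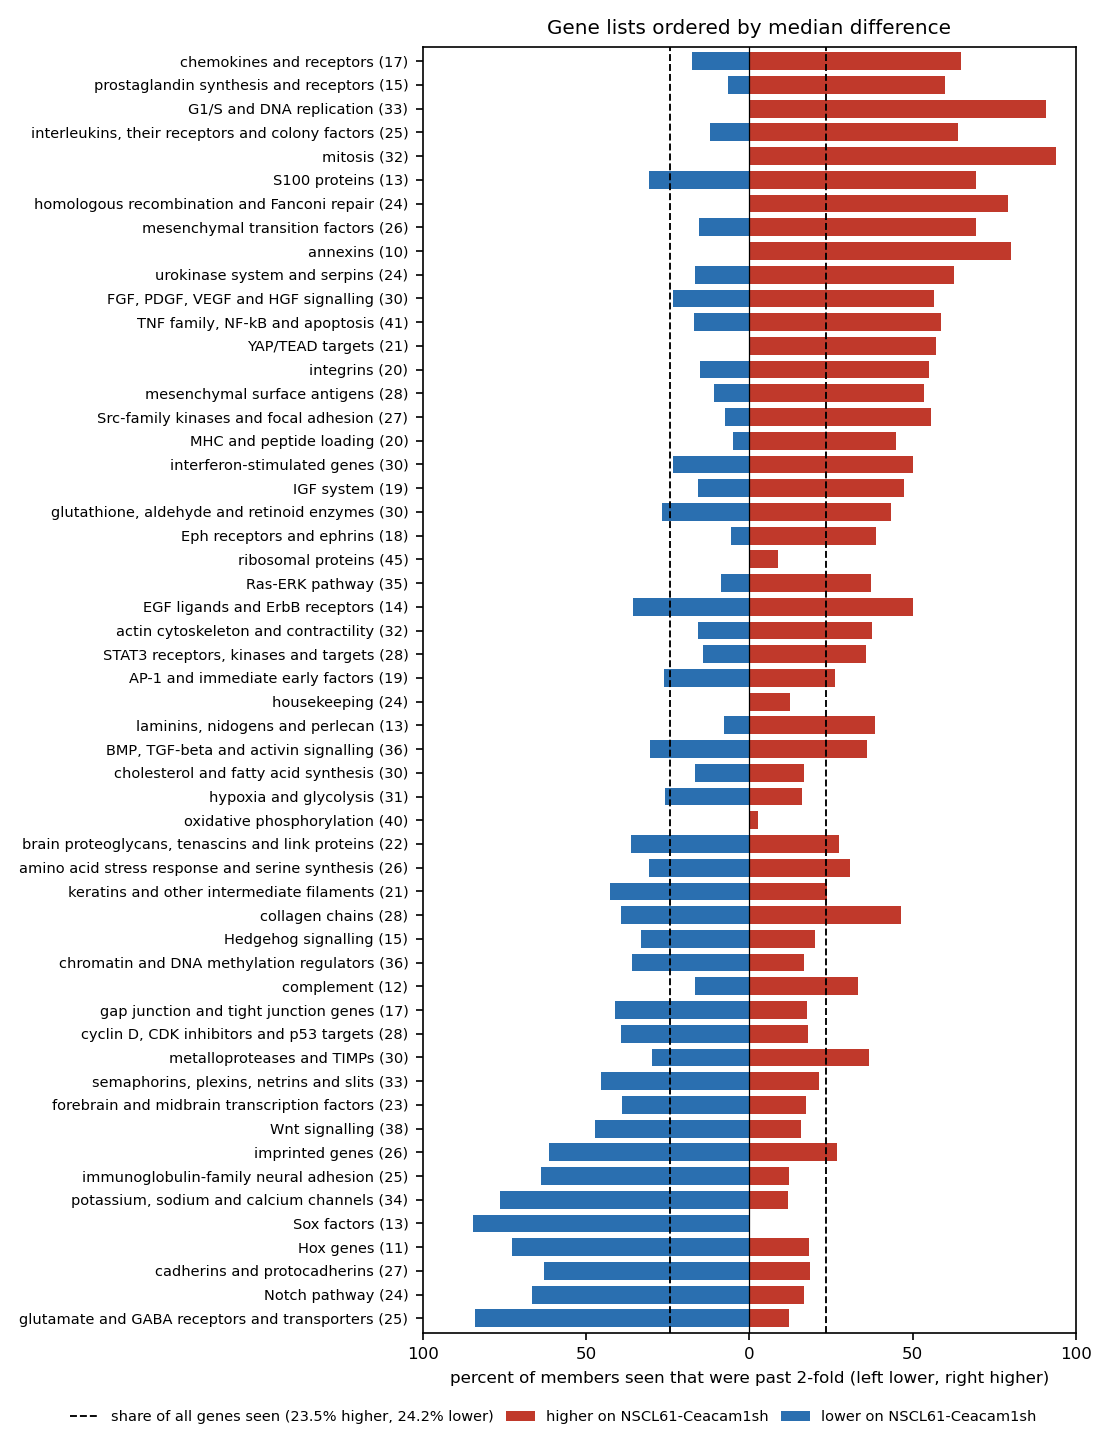
Percent of the members seen that were 2-fold or more higher (red, right) or lower (blue, left) on NSCL61-Ceacam1sh than on NSCL61 in the gene lists with at least 10 members seen, other than cell types, ordered by median difference, with dashed lines at the shares of all genes seen (23.5% higher, 24.2% lower). Cell cycle, repair, chemokine and annexin lists lie at the upper end, glutamate, Notch, cadherin, Hox and Sox lists at the lower end, and oxidative phosphorylation, ribosomal and housekeeping genes have few members past 2-fold.

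Adhesion molecules of neural cells were more often lower than higher. Of 27 cadherins and protocadherins 17 were lower and 5 higher (median -2.71, -1.19 with bounds, -0.33 on both). Cdh2, the cadherin of neural and mesenchymal cells, was at 5.0 on NSCL61 and 5.13 on the hairpin array and within 2-fold, whereas Cdh4 (at least 148-fold lower), Cdh22 (-7.28), Pcdh15 (at least 291-fold lower) and Celsr3 (-4.8) were lower and Cdh6 (3.98), Pcdh18 (3.97) and Pcdh19 (3.05) higher. Of 25 neural adhesion genes of the immunoglobulin family 16 were lower and 3 higher (median -1.56, -1.02 on both). Cadm4 (-7.72), Nrcam (-6.43) and Igsf11 (-5.04) were lower and Cntn1 was at least 164-fold lower, against the junction molecule F11r, at least 24.5-fold higher, and Alcam at 3.17.

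Integrins, the receptors for matrix, had 11 higher and 3 lower of 20 (median 1.27). Itga3, which pairs with Itgb1 to bind laminin, differed by 5.95 ± 0.24 and Itgb1 by 1.53 ± 0.20. The hairpin array alone showed Itgb3 (at least 34.9-fold higher) and Itga8 (at least 5.75-fold higher). Itgb8, an integrin of neural progenitors and astrocytes, was at least 57.1-fold lower and Itga9 differed by -3.64. Laminins and their partners showed 5 higher and 1 lower of 13 (median 0.22), with the linker Nid1 at 0.24 on NSC, 2.71 on NSC-Ceacam1L, -6.56 on NSCL61 and 3.37 on the hairpin array, Lama4 at least 24.2-fold higher, perlecan Hspg2 at 3.59 and agrin Agrn at -2.04.

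Collagen genes went both ways, with 13 higher and 11 lower of 28 and a median of -0.14 that was above 0 under median, quantile, cyclic loess and spike-in scaling, at 0.91 over the 18 seen on both arrays and at 0.02 with dim genes kept. The basement membrane chains Col4a1 (4.9 ± 0.21) and Col4a2 (4.76 ± 0.21) and the fibrillar chains Col3a1 (5.25), Col1a2 (5.14) and Col1a1 (4.48) were higher, and Col8a1 was at least 41.1-fold higher. The Col6 chains had another order. Col6a1 was at -3.14 on NSC, -1.53 on NSC-Ceacam1L, 6.7 on NSCL61 and 3.27 on the hairpin array and Col6a2 at -4.18 on NSC, -2.96 on NSC-Ceacam1L, 3.54 on NSCL61 and -0.28 on the hairpin array, so both were highest on NSCL61 and lower, but still above the NSC arrays, on the hairpin array. The chains Col5a2 (at least 61.7-fold lower) and Col9a1 (at least 7.12-fold lower) were seen on the parental array only.

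Brain proteoglycans, tenascins and link proteins had 6 higher and 8 lower of 22 (median 0.05, below 0 with normexp background correction, 0.69 on both). The lecticans split, with Bcan and Ncan seen on the parental array only and Vcan, a lectican of mesenchyme, at 1.75. Tenascin C (Tnc, 1.71) was higher, tenascin R (Tnr) was at least 7.9-fold lower, and the syndecan of neurons, Sdc3, differed by -3.45.

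Matrix proteases and their inhibitors went both ways, 11 higher and 9 lower of 30 (median -0.66, -0.55 with bounds). The stromelysins Mmp3 (at least 1691-fold higher) and Mmp10 (at least 129.7-fold higher) and the collagenase Mmp13 (at least 19.1-fold higher), whose genes lie in 1 cluster on chromosome 9, were seen on the hairpin array only. The inhibitor Timp1 was at 0.68 on NSC, -0.021 on NSC-Ceacam1L, -0.46 on NSCL61 and 6.55 on the hairpin array. The macrophage elastase Mmp12, of the same cluster, was at -6.15 on NSC, -6.78 on NSC-Ceacam1L, -0.94 on NSCL61 and -6.58 on the hairpin array, so it was seen on NSCL61 alone. The membrane protease Mmp15 (at least 78.1-fold lower) and the inhibitor Timp4 (at least 28.0-fold lower) were seen on the parental array only, and Timp3 differed by -3.55. Urokinase and serpin genes numbered 15 higher and 4 lower of 24 (median 1.75, 0.99 with bounds). Plaur, the urokinase receptor, was at -2.7 on NSC, -3.57 on NSC-Ceacam1L, -2.85 on NSCL61 and 5.02 on the hairpin array and the collagen chaperone Serpinh1 at 3.52 on NSC, 3.45 on NSC-Ceacam1L, -0.69 on NSCL61 and 5.35 on the hairpin array, while tissue plasminogen activator (Plat, -2.49) and Serpine2 (-2.39) were lower. Serpina3n, a marker of reactive astrocytes, was at least 17.0-fold lower.

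Of 10 annexins seen, calcium dependent membrane binding proteins, 8 were higher and 0 lower (median 1.98). Anxa1 was at -4.99 on NSC, -2.48 on NSC-Ceacam1L, 2.52 on NSCL61 and 7.71 on the hairpin array, and Anxa3 (at least 258-fold higher) and Anxa4 (at least 228-fold higher) were seen on the hairpin array only. S100 proteins, their partners, had 9 higher and 4 lower of 13 (median 2.23), with S100a11 at 3.46 and S100a8 at least 76.9-fold higher, against the glial S100b, at least 352-fold lower. Of 28 mesenchymal surface antigens 15 were higher and 3 lower (median 1.17, 0.97 with bounds), including the protein C receptor Procr (5.67), Cd82 (5.62) and the stromal antigen Cd248 (3.95). The tetraspanin Cd81 differed by -2.03. Of 17 junction genes 3 were higher and 7 lower (median -0.53, above 0 when dim genes were kept). Gja1, the astrocyte connexin, differed by -1.26, and the myelin claudin Cldn11 was at least 59.3-fold lower.

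Most chemokines and cytokines that were seen were higher. Of 17 chemokines and receptors seen, 11 were higher and 3 lower (median 2.98, 1.23 over the 13 seen on both arrays and 0.51 with dim genes kept). Ccl2 was at 0.33 on NSC, -1.26 on NSC-Ceacam1L, 1.77 on NSCL61 and 6.58 on the hairpin array and Ccl7 at -4.77 on NSC, -4.81 on NSC-Ceacam1L, -0.051 on NSCL61 and 4.29 on the hairpin array, and the stromal factor Cxcl12 was at least 20.8-fold higher. Its receptors Cxcr4 (-2.7) and Ackr3 (-1.65) were lower. Of 25 interleukins, receptors and colony factors 16 were higher and 3 lower (median 2.48, 1.53 with bounds, 1.11 on both). Il33 (4.29) and its receptor Il1rl1 were higher together, as were Csf1 (3.03), Csf2 (at least 12.6-fold higher), Csf3 (at least 13.7-fold higher) and Il34 (6.89). Il18 differed by -5.38 and the decoy receptor Il1r2 was at least 8.0-fold lower.

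Among 41 genes of the TNF family, NF-kB and apoptosis 24 were higher and 7 lower (median 1.53, 1.21 with bounds). Caspase 8 (Casp8), which starts death receptor signalling, was at -2.26 on NSC, -1.39 on NSC-Ceacam1L, -6.5 on NSCL61 and 2.19 on the hairpin array, the death receptor Tnfrsf10b differed by 4.11, and Tnfaip2 was at least 342-fold higher. The death receptor Fas was at -2.76 on NSC, 1.07 on NSC-Ceacam1L, 2.98 on NSCL61 and -0.85 on the hairpin array, so it was high on NSCL61 and lower on the hairpin array, and Tnfrsf19, a receptor of neural progenitors, was at least 27.4-fold lower. The NF-kB subunit genes Nfkb1 (2.59), Nfkb2 (2.3) and Relb (1.53) were higher, and Rela (-0.11) and the inhibitor Nfkbia (-0.030) were within 2-fold.

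Of 30 interferon-stimulated genes 15 were higher and 7 lower (median 0.79, 0.69 with bounds, 0.49 on both), led by Isg20 (5.43) and Ifi35 (4.42), with Irf8 at least 7.71-fold lower and Gbp2 at -3.19. Antigen presentation had 9 higher and 1 lower gene of 20 (median 0.90). The class I chain H2-D1 (2.26), its light chain B2m (1.91) and the transporter Tap2 (1.95) were higher, H2-K1 (0.062) was within 2-fold, and the class II gene H2-Ab1 was at least 2.43-fold lower. Of 12 complement genes 4 were higher and 2 lower (median -0.46), with C3 at 1.53 and C4b, whose probe also lists C4a, at -2.48 on NSC, 2.9 on NSC-Ceacam1L, 3.48 on NSCL61 and -3.64 on the hairpin array. Prostaglandin genes had 9 higher and 1 lower of 15 (median 2.89, 0.92 with bounds). Over the 8 seen on both arrays the median was 0.03, and with dim genes kept it was 0.21. Beside the synthases, the phospholipase Pla2g4a (at least 10.5-fold higher) and the receptor Ptgfr (at least 37.7-fold higher) were higher, while Ptgds, the synthase of glia, was at 4.2 on NSC, 3.94 on NSC-Ceacam1L, 4.72 on NSCL61 and -2.77 on the hairpin array.

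Genes of cell division were higher, and NSCL61 was the low array. Of 33 genes of G1/S and DNA replication 30 were higher and 0 lower (median 2.69), the mitotic list had 30 higher and 0 lower of 32 (median 2.46, 2.39 with bounds), and homologous recombination and Fanconi repair had 19 higher and 0 lower of 24 (median 2.18, 2.07 with bounds). NSCL61 had the lowest level of the 4 arrays for 31 of 33, 32 of 32 and 20 of 24 of these genes. The hairpin array had the highest level for 28, 26 and 15 of them. Against NSC the list medians were -2.13, -2.04 and -2.14 on NSCL61 and 0.61, 0.45 and 0.44 on NSCL61-Ceacam1sh. Tk1 was at 3.96 on NSC, 2.82 on NSC-Ceacam1L, -0.91 on NSCL61 and 5.99 on the hairpin array and Ccnb2 at 4.85 on NSC, 3.95 on NSC-Ceacam1L, 0.81 on NSCL61 and 4.87 on the hairpin array. The helicase subunits Mcm3 (3.55), Mcm5 (3.32) and Mcm6 (2.17), the kinases Plk1 (3.22) and Aurka (3.13) and the repair genes Exo1 (4.21) and Fanca (3.66) were higher. Brca1 was at least 2.28-fold higher.

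Regulators of the G1 phase were more often lower. Of 28 genes of cyclin D, CDK inhibitors and p53 targets 5 were higher and 11 lower (median -0.64). The inhibitor Cdkn1c was at least 45.5-fold lower, Cdkn2a, which encodes p16 and p19Arf, was at 6.4 on NSC, 5.85 on NSC-Ceacam1L, 6.26 on NSCL61 and 1.47 on the hairpin array, and Cdkn1b (-1.77) and Rb1 (-2.37) were lower. Ccnd1 (1.82 ± 0.20) was higher, Cdk6 was at least 4.23-fold higher and Ccnd2 was at 5.49 on NSC, 4.29 on NSC-Ceacam1L, 1.47 on NSCL61 and 1.74 on the hairpin array, which left it low on both NSCL61 arrays. The stress gene Gadd45g differed by -3.79 and Perp was at least 135-fold higher. The Trp53 probe was at -1.33 on NSC, -1.61 on NSC-Ceacam1L, -1.52 on NSCL61 and -0.99 on the hairpin array in cells that the labels give as p53-/-, and where it lies relative to the deleted part is not given in the sources used here.

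Few genes of respiration, ribosomes and housekeeping were past 2-fold. Of 40 subunits of oxidative phosphorylation 1 was higher and 0 lower (median 0.06, below 0 under quantile and cyclic loess normalization), and the gene past 2-fold, Cycs, had probes in both directions. Of 45 ribosomal proteins 4 were higher and 0 lower (median 0.54, but 0.25 under quantile and 0.09 under cyclic loess normalization). The hairpin array was the highest of the 4 for 40 of them under the scaling used here, and this order was not taken under the others. Of 24 housekeeping genes 3 were higher and 0 lower (median 0.32, but 0.13 under quantile and 0.05 under cyclic loess normalization). The 3 higher genes were Hprt (3.49 on NSC, 1.94 on NSC-Ceacam1L, 2.12 on NSCL61 and 5.42 on the hairpin array), B2m (1.91) and Tfrc (1.47), while Actb (-0.075), Ppia (0.19), Tbp (0.33) and Polr2a (0.14) were close to 0. The probes of Gapdh differed by 0.19 to 1.05.

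Of 31 hypoxia and glycolysis genes 5 were higher (16.1%) and 8 lower (25.8%), against 23.5% and 24.2% of all genes seen. Their median was 0.16, below 0 under quantile and cyclic loess normalization. Hk2 (2.08) and the glucose transporter Slc2a1 (2.0) were higher and Pfkfb3 (-3.12) and the muscle isoform Pfkm (-2.54) lower. Cholesterol and fatty acid genes had 5 higher and 5 lower of 30 (16.7% each, below the shares of all genes seen). Their median was 0.17, below 0 under the same normalizations, and the desaturases Fads2 (-3.12) and Scd2 (-2.75) were lower. Among 26 genes of amino acid stress and serine synthesis 8 were higher and 8 lower (median 0.02, -0.03 on both, below 0 under quantile and cyclic loess normalization). The cystine transporter Slc7a11 was at least 5.44-fold higher, and Mthfd2 differed by 2.32 and Ddit4 by -3.09. Of 30 glutathione, aldehyde and retinoid enzymes 13 were higher and 8 lower (median 0.60). The retinoic acid binding protein Crabp1 (at least 486-fold higher) and the quinone reductase Nqo1 (at least 48.7-fold higher) were seen on the hairpin array only and Gsto1 differed by 3.51, against the retinoic acid synthase Aldh1a1 (-6.96) and the receptor Rarb (-4.98).

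Most transmitter receptors, transporters and ion channels that were seen were lower. Of 25 glutamate and GABA receptors and transporters 21 were lower and 3 higher (median -3.21, -1.86 with bounds, -2.05 on both). The glutamate transporters Slc1a2 (at least 70.2-fold lower) and Slc1a1 (at least 6.29-fold lower), the GABA transporter Slc6a11 (at least 37.1-fold lower) and the kainate receptor Grik4 (at least 94.6-fold lower) were seen on the parental array only. Grm7, a metabotropic receptor, was at least 18.7-fold higher. Of 34 potassium, sodium and calcium channel genes 26 were lower and 4 higher (median -2.15, -1.54 with bounds). The glial channel Kcnj16 was at least 52.7-fold lower, Kcnd3 differed by -6.74, and Kcnn4, a channel of lymphocytes and fibroblasts, was at least 169-fold higher.

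Chromatin genes had 6 higher and 13 lower of 36, with a median of -0.30 (-0.17 on both) that was above 0 under median and spike-in scaling. The replication-linked factors Hells (3.93) and Uhrf1 (3.24) were higher, and the methyltransferase Dnmt3a (-3.17), the dioxygenase Tet1 (-3.41) and Jarid2 (-2.12) lower. Of 26 imprinted genes 16 were lower and 7 higher (median -1.40, -1.25 with bounds). Mest was at 5.16 on NSC, 5.27 on NSC-Ceacam1L, 4.09 on NSCL61 and -1.14 on the hairpin array, Ndn at 1.49 on NSC, 1.59 on NSC-Ceacam1L, 0.23 on NSCL61 and -3.78 on the hairpin array and Nnat was at least 187-fold lower, while Phlda2 (at least 12.5-fold higher) and Meg3 (at least 5.34-fold higher) were higher. H19, the RNA beside Igf2, was at 1.26 on NSC, 0.69 on NSC-Ceacam1L, 5.26 on NSCL61 and -4.78 on the hairpin array, so it was highest on NSCL61. Xist (1.85 on NSC, 1.26 on NSC-Ceacam1L, 0.42 on NSCL61 and -4.05 on the hairpin array) and its activator Jpx (at least 1.61-fold lower) were lower, and the male genes Ddx3y, Eif2s3y, Kdm5d, Usp9y and Uty were seen on neither array. The X-linked list as a whole had 2 higher and 3 lower of 8 (median -0.11, -0.01 on both, above 0 under median and spike-in scaling).

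Keratins and other filaments had 5 higher and 9 lower of 21 (median -0.08, -0.02 on both, above 0 under median, quantile, cyclic loess and spike-in scaling). Lamin A (Lmna), which rises with tissue stiffness, was at 1.47 on NSC, 2.0 on NSC-Ceacam1L, 4.37 on NSCL61 and 7.4 on the hairpin array. The neurofilament genes Ina (-4.01) and Nefh (-3.69) were lower, and Krt20 was at least 6.18-fold higher.

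Differences were not spread evenly over the genome. Chromosome 10 had the largest share of lower genes, 279 of 755 (36.95%) against 14.2% higher, and a median of -0.58. All 706 windows of 50 neighbouring genes on it had a median below 0 (from -1.08 to -0.08), as did 518 (68.6%) of its genes. On this chromosome NSCL61 lay a median of 0.62 above the mean of the NSC arrays and NSCL61-Ceacam1sh 0.09 above it, so NSCL61 was the shifted array. Median and spike-in scaling, which add 0.42 and 0.44 to every difference, left the chromosome's median at -0.16 and -0.14 and 533 and 489 of its windows below 0. Its distance from the median of all genes, -0.59, cannot change when a constant is added. Chromosome 3 had 34.4% of genes higher and a median of 0.36, with 641 (89.3%) of its 718 windows above 0, and chromosome X had 32.45% higher and a median of 0.26. Chromosome 8 was raised on both NSCL61 arrays over the NSC arrays (0.42 and 0.35) and differed by -0.05 between them, above 0 under median and spike-in scaling (0.37 and 0.39). Chromosome 17 was raised on both as well (0.30 on NSCL61 and 0.33 on NSCL61-Ceacam1sh) and differed by 0.02 between them. Copy number was not measured.

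**Figure D5:**
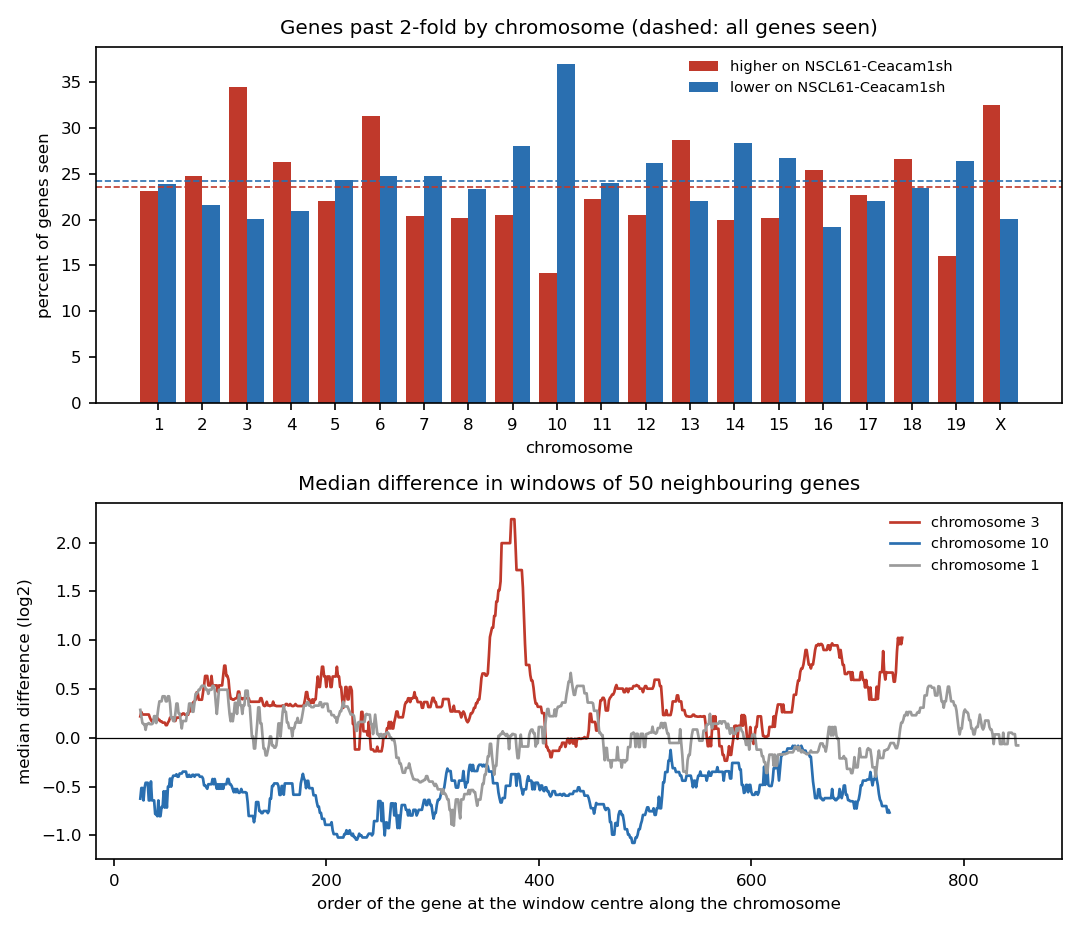
Upper panel: percent of genes seen that were 2-fold or more higher (red) or lower (blue) on NSCL61-Ceacam1sh by chromosome, with dashed lines for all genes seen. Lower panel: median difference (log2) in windows of 50 neighbouring genes in their order along chromosomes 1, 3 and 10, where chromosome 10 stays below 0 throughout and chromosome 3 has a peak of 2.24.

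Several neighbouring gene families stood out along the chromosomes, and they were chosen for description after their values were seen. Over all 14560 windows, 85.6% of medians lay between -0.5 and 0.5. A window takes genes seen on 1 array only at their difference as measured, although a gene bright on 1 array and dim on the other had to differ. The highest and lowest medians rest in part on such genes. Window medians over genes seen on both arrays were not taken. The highest, 2.24, lay on chromosome 3 from 90291393 to 94240427 (mm9) and held the S100 genes and the epidermal differentiation genes, with 31 higher and 9 lower. These encode proteins of the outer skin barrier. Of 15 Sprr genes with a probe 8 were seen on the hairpin array and 2 on the parental array, and 6 were higher and 0 lower. The largest bounds were those of Sprr1b (at least 66.9-fold higher) and Sprr2h (at least 51.7-fold higher). Of 18 Lce genes 11 were seen on the hairpin array and 2 on the parental array, and 10 were higher, led by Lce1g (-6.18 on NSC, -6.77 on NSC-Ceacam1L, -6.53 on NSCL61 and 2.22 on the hairpin array) and Lce1i (at least 69.3-fold higher). Family members share sequence, so a probe may read several of them and the genes within a family are uncertain.

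Further families had more members seen on the hairpin array than on NSCL61. On chromosome 13, a window from 23837328 to 34077515 with a median of 1.29 held prolactin family genes and the Serpinb6 and Serpinb9 genes. Of 22 prolactin family genes with a probe, 8 were seen on NSCL61-Ceacam1sh and 3 on NSCL61, and 7 were higher, including the placental hormones Prl3d1 (5.44) and Prl3d2 (at least 61.5-fold higher, with a probe that lists Prl3d1 and Prl3d3 too) of this window. The proliferin Prl2c5, whose probe also lists Prl2c1 and lies outside the window, was at least 1519-fold higher. All 7 genes seen of the Serpinb6 and Serpinb9 groups whose names end in a letter were higher, but only 2 of them were seen on NSCL61. These were the protease inhibitors Serpinb6a (4.84) and Serpinb6c (5.02). The others entered through the hairpin array and so had to differ, and the probe of Serpinb9f (at least 2.09-fold higher) also lists Serpinb9e. Serpinb9 itself, not in this count, was likewise seen on the hairpin array only (at least 6.14-fold higher). Of 29 Klr receptor genes with a probe 10 were seen on the hairpin array and 3 on NSCL61, and 9 were higher. Of the members seen, 7 lay on chromosome 6 in a window from 129377543 to 136762237 with a median of 1.09. Klra7, one of the receptors known from natural killer cells, was at -6.12 on NSC, -6.7 on NSC-Ceacam1L, -3.1 on NSCL61 and 2.89 on the hairpin array, and Klra16, whose probe has no position in the files, was at least 489.6-fold higher.

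The lowest window, with a median of -1.40, held the clustered protocadherins on chromosome 18, which give single neurons their surface identity. All 19 Pcdhb genes seen were lower, from -7.93 to -1.15 with dim values as measured, with 19 seen on NSCL61 and 8 on NSCL61-Ceacam1sh. Pcdhb20 was at 0.70 on NSC, 1.06 on NSC-Ceacam1L, 1.6 on NSCL61 and -3.97 on the hairpin array and Pcdhb10 was at least 66.6-fold lower. Of 5 Pcdha genes 4 were lower (median -2.93), and Pcdhga9, whose probe lists further gamma genes, differed by -1.78. On chromosome 10, in a window from 81072387 to 86693224 with a median of -1.08, 27 genes were lower and 2 higher, among them the ciliary and neural factor Rfx4, at least 225-fold lower.

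Promoter letters were read for the genes that RefSeq gives a promoter (GRCm38.p6, 250 bases before to 50 after each start), which were 12254 of the 15620 genes (78.45%). Under 80% of the genes had a promoter, so the shares below describe these genes only and the check of promoter content is void for all genes seen. Each motif was searched on both strands. The AP-1 letters TGANTCA stood in 12.1% of promoters of genes higher by 16-fold or more (63 of 520), in 5.56% of those lower by 16-fold or more (43 of 774), in 5.72% of all promoters of genes seen and in 7.81% of all 32851 promoters. The TATA letters TATAAA stood in 17.1%, 10.9%, 8.86% and 13.6%. The 16-fold sets take dim values as measured and hold 415 higher and 579 lower genes. Among genes seen on both arrays, 139 were higher by 16-fold to 64-fold and 44 by 64-fold or more, and 144 and 65 were lower. Most genes of both sets were therefore seen on 1 array only and had to differ. Shares over genes seen on both arrays were not taken. AP-1 and TATA were not alone among the strings searched. In genes higher by 16-fold or more, against genes seen, the Sox string ACAAAG stood in 20% against 14.9% and the E-box CANNTG in 76% against 65.4%. Others were rarer there, such as TGACGTCA (1.54% against 2.79%) and CCAAT (33.3% against 37.8%). A match is a string of letters and shows no binding.

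The promoters of the 3 clustered proteases Mmp3, Mmp10 and Mmp13 are shown because all 3 genes were seen on the hairpin array only and each carries both strings. Capitals mark the AP-1 and TATA letters, positions count back from -1 at the base before the start, and each sequence covers the 250 bases before the start on the plus strand of GRCm38.p6. They lie at chr9:7445572-7445821, chr9:7502092-7502341 and chr9:7272264-7272513 in the order below.
Mmp3: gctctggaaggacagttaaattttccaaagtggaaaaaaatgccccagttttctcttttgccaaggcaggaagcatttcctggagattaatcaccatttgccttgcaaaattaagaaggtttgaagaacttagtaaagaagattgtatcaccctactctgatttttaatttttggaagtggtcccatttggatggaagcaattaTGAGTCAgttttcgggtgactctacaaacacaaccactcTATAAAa
Mmp10: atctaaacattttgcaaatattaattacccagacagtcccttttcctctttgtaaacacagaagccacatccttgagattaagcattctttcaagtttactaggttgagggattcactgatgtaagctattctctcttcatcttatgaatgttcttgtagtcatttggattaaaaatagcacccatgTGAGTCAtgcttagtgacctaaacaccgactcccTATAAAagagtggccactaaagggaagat
Mmp13: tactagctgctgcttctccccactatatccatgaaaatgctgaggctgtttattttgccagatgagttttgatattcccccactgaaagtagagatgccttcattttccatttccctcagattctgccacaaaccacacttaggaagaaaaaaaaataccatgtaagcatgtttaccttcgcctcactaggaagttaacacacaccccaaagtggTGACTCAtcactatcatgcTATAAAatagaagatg
The AP-1 letters lie from -46 to -40 in Mmp3, -63 to -57 in Mmp10 and -35 to -29 in Mmp13.

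Cell cycle promoters carried other letters. The string TTTGAA of the cell cycle homology region stood in 20 of 27 promoters of mitotic genes (74.1%), in 12.9% of those of G1/S genes, in 12.7% of all promoters of genes seen and in 17.9% of all promoters. CCAAT, read by NF-Y, stood in 22 of 27 (81.5%) mitotic and 22 of 31 (71%) G1/S promoters, against 37.8% and 37.4%. The E2F strings TTTCGCGC and TTTGGCGC, which can overlap, stood in 5 (16.1%) and 7 (22.6%) of 31 G1/S promoters, against 0.569% and 0.847% of promoters of genes seen and 0.323% and 0.514% of all. The promoters of Ccnb2, a mitotic cyclin, and Mcm6, a helicase subunit, are shown as examples that carry these strings. They lie on the minus strand of GRCm38.p6 at chr9:70421555-70421804 and chr1:128359706-128359955, each given 5′ to 3′ as the 250 bases before the start, with capitals for TTTGAA and CCAAT in Ccnb2 and for the E2F strings and the reverse complement of CCAAT in Mcm6.
Ccnb2: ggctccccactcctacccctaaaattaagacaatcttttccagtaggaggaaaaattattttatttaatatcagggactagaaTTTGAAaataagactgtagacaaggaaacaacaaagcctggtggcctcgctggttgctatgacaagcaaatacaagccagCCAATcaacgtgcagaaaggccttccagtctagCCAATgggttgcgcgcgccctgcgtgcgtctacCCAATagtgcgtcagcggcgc
Mcm6: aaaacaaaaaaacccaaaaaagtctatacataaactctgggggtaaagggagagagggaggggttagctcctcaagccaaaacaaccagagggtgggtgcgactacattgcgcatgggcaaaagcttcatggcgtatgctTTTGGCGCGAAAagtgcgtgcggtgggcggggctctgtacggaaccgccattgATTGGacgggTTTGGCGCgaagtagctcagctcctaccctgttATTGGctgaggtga
Ccnb2 holds CCAAT 3 times, at -87, -54 and -21, and TTTGAA at -167, farther from the start than every CCAAT. Whether this TTTGAA is a cell cycle homology region is not shown, and the 50 bases after the start are not printed. Mcm6 holds an E2F string at -110, overlapped by a second, and another at -47.

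The letters GTGGGAA of RBPJ, the factor at the end of the Notch pathway, stood in 3 of 26 promoters of Notch list genes (11.5%), 6.19% of promoters of genes seen and 6.38% of all promoters. Lfng, a fringe enzyme that is a Notch target in other tissues, is shown because it was lower and carries the string. Its 250 bases lie on the plus strand of GRCm38.p6 at chr5:140607091-140607340, with GTGGGAA (from -109 to -103) and CCAAT in capitals.
Lfng: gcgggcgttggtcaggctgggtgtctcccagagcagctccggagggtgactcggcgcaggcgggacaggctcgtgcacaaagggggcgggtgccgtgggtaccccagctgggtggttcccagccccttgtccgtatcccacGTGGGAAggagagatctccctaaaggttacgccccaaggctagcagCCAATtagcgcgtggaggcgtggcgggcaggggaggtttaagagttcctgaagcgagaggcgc
The ETS letters CCGGAAG were rarer in strongly differing genes of either direction, at 6.15% of promoters of genes higher and 4.39% of genes lower by 16-fold or more, against 14.9% of all promoters of genes seen and 8.86% of all. The same genes had fewer CpG pairs in the window of 300 bases, with a median of 8 for the higher and 14 for the lower genes, against 18 for all genes seen and 7 for all promoters.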

How the data were processed

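RNA from 4 cultures, 1 array each, was labelled with Cy3 and hybridised to single-colour Agilent mouse arrays, as the labels' protocols state. Per the file headers, the deposited scanner files hold intensities from Feature Extraction 10.7.3.1 for 62976 spots, background-corrected by that software, with positions in mm9. The submitters' processing notes name version 9.1. The authors' deposited value table holds log2 values whose making is not given in the sources used here. Its differences between the hairpin and the parental array were set against those of the unscaled log2 scanner signals. They had a slope of 0.9997 with an offset of -0.27 over 23439 probes, so the table's scale is log2. Its column medians are 0.25, -0.20, 0.00 and 0.03 in the order NSC, NSC-Ceacam1L, NSCL61 and hairpin array, and its centring is unknown.

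Here log2 processed signals were scaled to the 75th percentile of each array over non-control spots, and spots of a probe were averaged without outlier spots. The probe with the highest mean over the 4 arrays stood for a gene. Of 55681 probes, 27318 were named through their accession, 3527 through the symbol in the file and 553 through an older symbol, and 24283 had no name. Calls took a 2-fold difference in genes well above background on the brighter array. The members and the 70 gene lists were chosen with earlier results of these data known. Named are the genes with the largest differences and bounds in each direction, the largest in each list, and defining markers. Genes named for being within 2-fold, windows and families were chosen after their values were seen. With 1 array a group, no test was possible and precision is limited by how few arrays there are. The calling code was tested on simulated data, which says nothing of variation between cultures. Other scalings, background correction, filters and probe rules were tried. Quantile, cyclic loess and normexp used limma 3.58.1 in R 4.3.3, and the rest pandas 2.3.3. Some genes of the lists are counted but not named here.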

Additional observations from a re-analysis of the deposited data

Results flagged for a closer look

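Of the probes that could not be paired with a gene name, 10294 were well above background on 1 or both of the NSCL61 arrays. They stand outside the gene counts. On NSCL61-Ceacam1sh, 1672 (16.2%) of them were higher and 2697 (26.2%) lower by 2-fold or more, against 23.5% and 24.2% of named genes. They were set apart because they carry signal that the gene comparison does not use, and what transcripts they read is not known here.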

How the results depend on the processing

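The counts of 3664 higher and 3787 lower genes kept within 1.5 times of these values in all but 1 case, with 2821 higher and 2793 lower with normexp background correction, 5223 and 2869 with median scaling, 5327 and 2834 with spike-in scaling, 3478 and 3728 with quantile normalization and 3526 and 3829 with cyclic loess. Over genes seen on both arrays 2362 were lower, since fewer genes are counted. The Ceacam and Psg median of 1.15 was -0.65 over genes seen on both arrays, where 2 members remained, and the Hox median of -2.63 was 0.004 with dim genes kept. In windows of 25 genes the highest and lowest medians were 4.02 and -3.21, against 2.24 and -1.40 in windows of 50. No gene called higher was called lower, or the reverse, under quantile, cyclic loess or normexp. Median and spike-in scaling add 0.42 and 0.44 to every difference, so they could not reverse a call. With the median over all probes of a gene, 13 genes called lower became higher and 5 called higher became lower. Of the 70 list medians, 35 moved by more than the median spot error of 0.20 over genes seen on both arrays, 38 with normexp and all 70 with median and with spike-in scaling. Of called genes with several probes, 12.3% (173 of 1401) had another seen probe of opposite sign. No paired analysis was possible because each group has 1 array, and no replicate could be left out. Genes near the faintest detected signals, -4.65 on NSCL61 and -4.75 on NSCL61-Ceacam1sh, have bounds only.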
